A study of Mus musculus with 57 samples.

Results

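The primary granule genes described here are Mpo, Elane, Prtn3, Ctsg, Prss57 and Ms4a3. They were chosen by name, and all 6 were found among the 47712 rows with an Ensembl gene ID in a table of 56332 genes. RNA was sequenced from 57 libraries of bone marrow of male C57BL/6 mice that were 8 weeks old and then received an antibody for 4 weeks. The 26 treated libraries came from 10 pools of mice given an antibody against PAPP-A, a secreted protease that cuts binding proteins of insulin-like growth factors, and the 31 control libraries came from 10 other pools given a control antibody. All mice were otherwise of the same strain and sex, and the labels give neither the number of mice in a pool nor the surface markers of the sorts.

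Treated and control libraries numbered 4 and 4 in granulocyte-monocyte progenitors (GMP), 4 and 4 in common lymphoid progenitors (CLP), 4 and 4 in megakaryocyte-erythroid progenitors (MEP), and 4 and 3 in haematopoietic stem cells (HSC). They numbered 6 and 6 in sorted Myeloid cells and 4 and 6 in mesenchymal stromal cells (MSC). Unsorted whole bone marrow (WBM) was sequenced from 4 control pools. The labels split the libraries into batches A, B and C without saying what a batch is. GMP, CLP, MEP and HSC were all in batch A, Myeloid libraries were in B and C, and MSC and WBM libraries were in A and C. A pool number stands for the same mice in every population.

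Primary (azurophil) granules are the earliest granules of the neutrophil lineage. Their genes are transcribed at the progenitor and promyelocyte stages and are then shut down, while the stored proteins last into the mature cell. Mpo encodes myeloperoxidase, a haem enzyme that makes hypochlorous acid. Elane, Prtn3, Ctsg and Prss57 encode the serine proteases neutrophil elastase, proteinase 3, cathepsin G and neutrophil serine protease 4. Ms4a3 encodes a tetraspanning membrane protein of the MS4A family, not granule cargo, and is used in mice to mark cells descended from GMP.

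Levels are given as counts per 1000000 counts of a library (CPM). Library totals ranged from 107412 counts in a treated HSC library (pool 6) to 125537299 in a control Myeloid library, and 4 libraries held under 1000000 counts. No marker list was made for GMP itself. Stem cell markers summed to 884.6 to 1259 CPM in control HSC and to 31.93 to 81.49 CPM in control GMP, and lymphoid markers summed to 2510 to 3237 CPM in control CLP and to 10.98 to 56.51 CPM in control GMP. Erythroid markers summed to 4402 to 6120 CPM in control MEP, but megakaryocyte markers were lower there, at 199.1 to 406.4 CPM, than in control HSC, at 808 to 1136 CPM. Stromal markers summed to 26360 to 57070 CPM in control MSC. Markers of mature neutrophils summed to 120900 to 180100 CPM in control Myeloid libraries. In these bulk samples, fewer cells of a type and less RNA per cell cannot be told apart.

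Prss57, Prtn3 and Elane share a stretch of chromosome 10 in GRCm38 with GENCODE M21 annotation. Prss57 lies at chr10:79781474-79790961 on the minus strand, Prtn3 at chr10:79874476-79883174 and Elane at chr10:79886247-79888215, both on the plus strand. Only 3072 bases separate Prtn3 from Elane, whereas 83514 bases separate Prss57 from Prtn3. Mpo lies at chr11:87793581-87804413 on the plus strand, Ctsg at chr14:56099881-56102574 and Ms4a3 at chr19:11629496-11640851, both on the minus strand. Another annotated gene overlaps 3 members on the opposite strand: Gm11505 overlaps Mpo by 5361 bases, Plppr3 overlaps Prtn3 by 159 bases and Fstl3 overlaps Prss57 by 1157 bases. The libraries were strand-specific, but whether the counting used strand is not stated. In control GMP, Gm11505 stood at 8.111 to 29.83 CPM, Plppr3 at 174.3 to 249.7 CPM and Fstl3 at 16.17 to 22.78 CPM, each below the member it overlaps. In control HSC, Plppr3 stood at 25.92 to 99.4 CPM, against 98.71 to 111.4 CPM for Prtn3.

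Promoter sequence was at hand for 5 of the 6 members, Prss57 being the other, in RefSeq windows of 250 bases before to 50 after the start in GRCm38.p6. The promoters of the granule cargo genes are shown because these genes were all higher in GMP than in HSC, CLP and MEP. Capitals mark GAGGAA, a core of sites bound by PU.1 and other ETS factors, searched on both strands. All are written 5′ to 3′ on the gene's strand: Mpo at chr11:87793534-87793833 (plus), Elane at chr10:79886062-79886361 (plus), Prtn3 at chr10:79879417-79879716 (plus) and Ctsg at chr14:56102525-56102824 (minus).
Mpo: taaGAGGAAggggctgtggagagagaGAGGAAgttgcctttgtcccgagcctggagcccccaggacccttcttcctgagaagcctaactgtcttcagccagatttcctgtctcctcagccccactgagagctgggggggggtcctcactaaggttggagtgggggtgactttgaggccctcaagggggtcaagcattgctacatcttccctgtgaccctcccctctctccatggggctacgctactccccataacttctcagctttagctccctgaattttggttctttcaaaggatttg
Elane: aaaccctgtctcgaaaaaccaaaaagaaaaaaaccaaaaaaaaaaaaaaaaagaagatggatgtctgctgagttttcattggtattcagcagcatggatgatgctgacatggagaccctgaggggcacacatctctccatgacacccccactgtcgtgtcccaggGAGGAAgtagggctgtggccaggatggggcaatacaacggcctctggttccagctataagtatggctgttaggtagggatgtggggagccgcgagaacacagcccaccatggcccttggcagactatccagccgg
Prtn3: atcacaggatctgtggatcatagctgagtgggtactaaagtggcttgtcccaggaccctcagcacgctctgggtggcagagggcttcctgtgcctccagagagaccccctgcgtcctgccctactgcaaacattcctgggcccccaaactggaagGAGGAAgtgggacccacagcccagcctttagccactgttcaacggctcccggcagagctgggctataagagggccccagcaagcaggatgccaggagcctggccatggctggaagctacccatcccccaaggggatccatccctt
Ctsg: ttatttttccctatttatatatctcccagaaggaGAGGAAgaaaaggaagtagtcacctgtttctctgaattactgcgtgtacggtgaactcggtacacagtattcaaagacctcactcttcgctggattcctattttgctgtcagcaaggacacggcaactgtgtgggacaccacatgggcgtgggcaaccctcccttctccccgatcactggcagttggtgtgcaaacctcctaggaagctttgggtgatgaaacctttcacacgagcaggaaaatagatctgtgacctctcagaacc

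GAGGAA occurred in 5 of 5 member windows, and in 28.3% of the 32851 RefSeq windows. It began 95 bases before the start in Prtn3 and 85 bases before it in Elane, the pair that lies 3072 bases apart. In Mpo it began 247 and 224 bases before the start, in Ctsg 216 bases before, and in Ms4a3 at base 36 after it. The C/EBP-like letters TTNNGNAA were found in the Ms4a3 window alone (40.7% of all windows), TGTGGT, a RUNX core, in Ctsg alone (16.8%), and AACTGNC, a MYB core, in Mpo and Ctsg (12.8%). TATAAA was found in Ctsg alone, beginning 237 bases before the start on the opposite strand (13.6% of all windows). Only these exact letters were searched, and the Elane and Prtn3 windows hold TATAAG, which was not counted. No motif overlapped another of those listed in the 4 windows shown. The RefSeq starts of Mpo, Elane and Prtn3 lie inside the GENCODE spans of these genes.

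GMP had the highest group median of every member. The 6 genes together took 2.805% to 3.596% of all counts in treated GMP libraries and 2.999% to 3.751% in control GMP libraries. Mpo was at 24890, 18220, 20670 and 22330 CPM in the treated GMP libraries and at 21250, 20190, 19470 and 25370 CPM in the control ones. The 8 GMP libraries lay within a narrow band, with treated and control values mixed.

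Elane was at 4996, 3630, 5592 and 5274 CPM in treated GMP and at 5614, 3907, 7346 and 5241 CPM in control GMP. Prtn3 was at 3212, 2989, 3335 and 3692 CPM in treated GMP and at 3243, 2722, 4671 and 3152 CPM in control GMP. Control pool 5 was the highest of the 8 for both proteases, and the groups overlapped. Ctsg ranged from 2120 to 2815 CPM in treated GMP and from 2221 to 3450 CPM in control GMP. Ms4a3 ranged from 550.7 to 1001 CPM in treated GMP and from 723.9 to 1287 CPM in control GMP. Prss57 stood at 191.6 to 263.1 CPM in treated GMP and 218.2 to 300.3 CPM in control GMP.

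Per kilobase of annotated exon (CPM per kb), which allows genes to be compared, the order in control GMP was Mpo with a median of 6052, Elane with 5516, Ctsg with 2309, Prtn3 with 1846, Ms4a3 with 447.1 and Prss57 with 86.89. Mpo (5687 to 7409) and Elane (3970 to 7465) overlapped, and so did Ctsg (2150 to 3340) and Prtn3 (1571 to 2697). Within a library, Ctsg exceeded Prtn3 per kb in 4 of 4 treated and 4 of 4 control GMP libraries. In CPM, Prtn3 exceeded Ctsg in each of these libraries. The per-kb order of this pair thus rests on the exon lengths, 1.732 kb for Prtn3 and 1.033 kb for Ctsg. These lengths join all annotated exons of a gene, whichever transcripts the cells make.

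**Figure D1:**
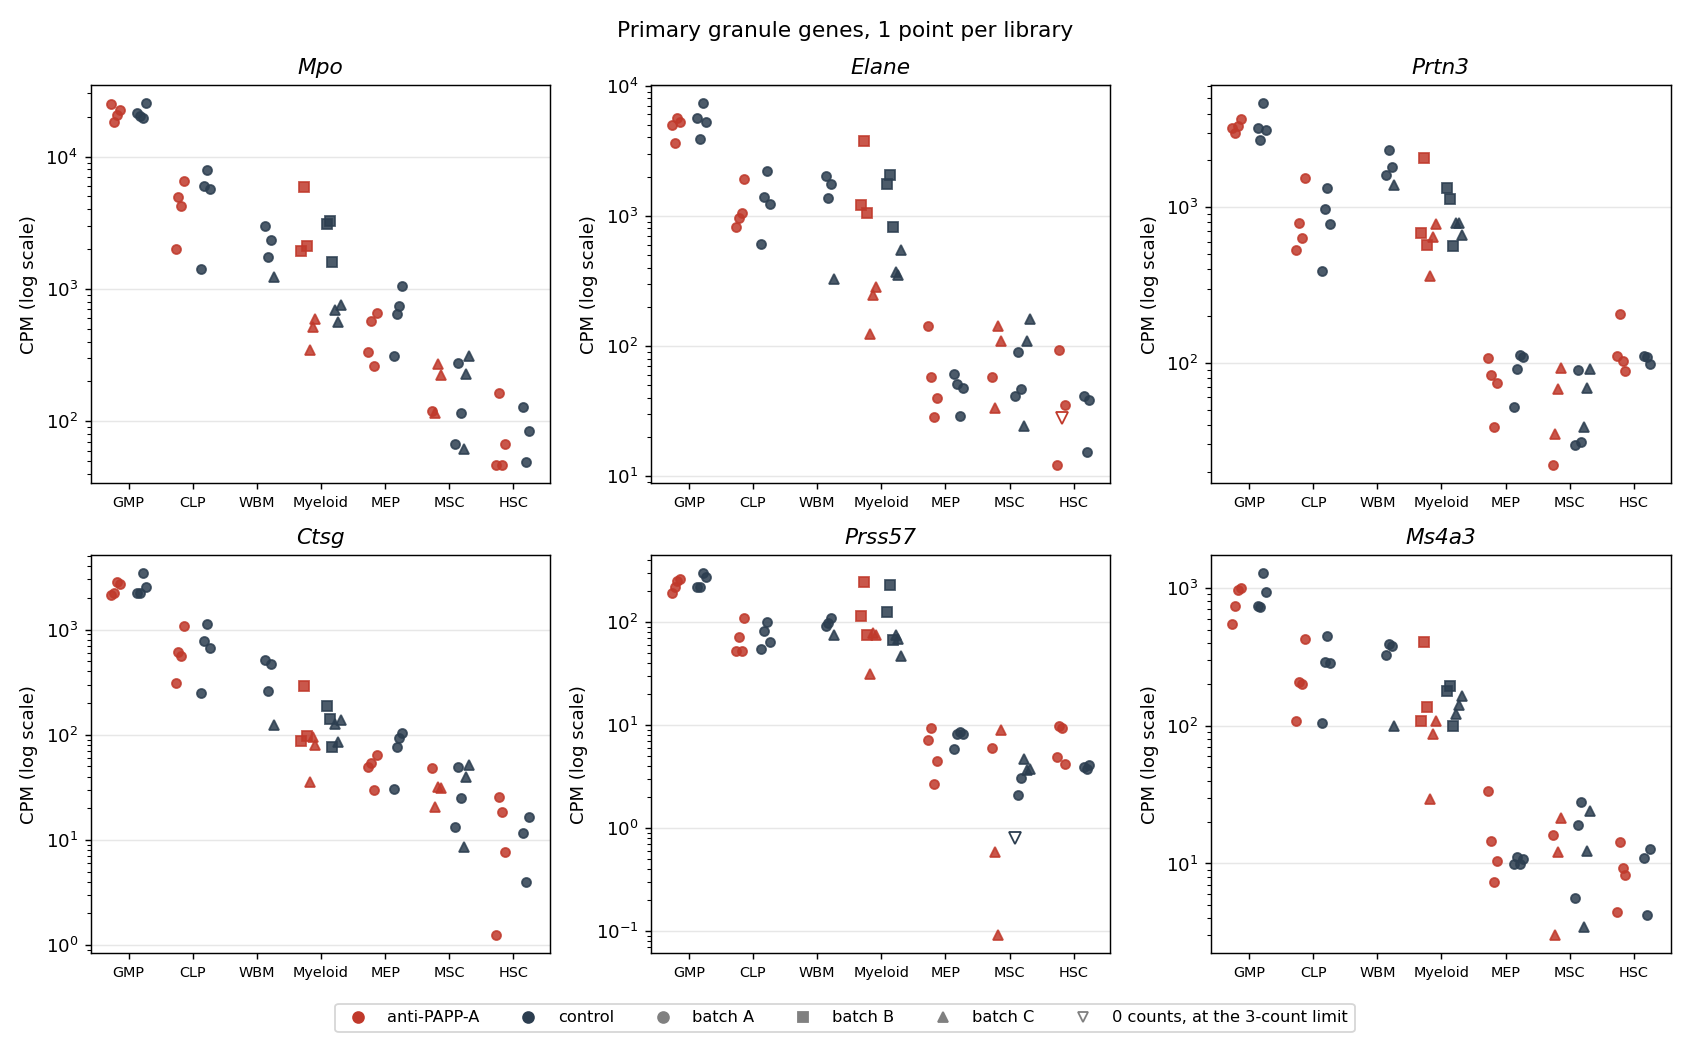
CPM of each gene on a log scale, with 1 point per library, populations along the x axis, antibody-treated libraries (red) left of control libraries (dark) and the batch shown by marker shape. The GMP groups had the highest medians for all 6 genes, batch B Myeloid libraries (squares) mostly lay above batch C ones (triangles), and a library with 0 counts is drawn as an open triangle at the level of 3 counts.

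CLP came next among the sorted progenitors, with a wide spread. Mpo was at 1985, 4989, 4211 and 6529 CPM in treated CLP and at 1404, 5994, 7962 and 5724 CPM in control CLP. Treated pool 2 and control pool 1 were low, and the groups overlapped. The same libraries were lowest for Ctsg (309.2 and 250.9 CPM) and Ms4a3 (107.5 and 104.4 CPM). They held the most mature neutrophil marker RNA, with sums of 11590 CPM in treated pool 2 and 9115 CPM in control pool 1 against 572.1 to 3055 CPM in the other CLP libraries. The part of these markers in the result was not tested.

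HSC and MEP held little of these transcripts, and the widest gaps between them were in Mpo and Ctsg. Mpo was at 46.97, 164.8, 46.55 and 67.5 CPM in treated HSC and at 127.9, 49.09 and 84.87 CPM in control HSC. It was at 333.6, 572.7, 262.3 and 654.7 CPM in treated MEP and at 313.9, 644.3, 741.4 and 1051 CPM in control MEP. Every HSC library thus lay below every MEP library. Ctsg showed the same gap, at 1.243 to 25.81 CPM in treated HSC and 3.989 to 16.58 CPM in control HSC, and at 29.97 to 64.37 CPM in treated MEP and 30.41 to 103.6 CPM in control MEP. The share of all genes with such a gap was not computed.

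Prtn3 did not follow Mpo at this low end. It was at 110.8, 206.5, 102.4 and 88.11 CPM in treated HSC and at 111.4, 108.4 and 98.71 CPM in control HSC, against 38.77 to 108.3 CPM in treated MEP and 51.85 to 112 CPM in control MEP. The HSC values overlapped the MEP values and spread little over the control pools. Elane was not counted in treated HSC pool 6, the library with 107412 counts, where 3 counts would be 27.93 CPM, so that its level there was not measurable at this depth. The other HSC libraries held Elane at 12.18 to 93.39 CPM in treated and 15.4 to 41.65 CPM in control pools.

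The contrasts between populations were tested in the control libraries, in a single edgeR quasi-likelihood fit over 21384 genes with batch as a term and Benjamini-Hochberg adjustment (adjusted p under 0.05 called). GMP was higher than HSC in 6 of 6 members, where 6.77% of all genes were called higher. Mpo averaged 21570 ± 2637 CPM in GMP and 87.29 ± 39.46 CPM in HSC (SD, n = 4 and 3), a log2 difference of 8.20 (SE 0.721 and edgeR adjusted p = 1.09e-09). Ctsg (log2 8.18), Elane (7.70), Ms4a3 (6.88) and Prss57 (6.27) were called too, with edgeR adjusted p-values from 2.78e-10 to 2.69e-08. Prtn3 had the smallest difference of the 6, at 5.30 (95% interval 4.38 to 6.22), an interval that did not reach that of Mpo (6.73 to 9.68). Both come from the same libraries, and the difference between the genes was not tested.

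GMP was higher than CLP in 6 of 6 members (5.15% of all genes called higher), by nearly the same amount for each. The log2 differences were 2.05 for Prss57, 2.07 for Ms4a3, 2.22 for Ctsg, 2.33 for Prtn3, 2.37 for Elane and 2.37 for Mpo, with edgeR adjusted p-values between 3.06e-05 and 0.00687. Every control GMP library exceeded every control CLP library for each member, and the share of all genes that did so was not computed. Without pool 7 the calls fell to 3 of 6 members, and Elane (edgeR adjusted p = 0.0517), Ms4a3 (0.0518) and Ctsg (0.0578) were lost at log2 differences of 2.34, 2.06 and 2.20. Without pool 1, Ms4a3 was lost (log2 1.91, edgeR adjusted p = 0.0636). The shares of all genes called without pool 7 or pool 1 are not given here. In the treated libraries, where 606 of 18316 genes were called higher, 5 of 6 members were called, without Prss57 (log2 1.72, edgeR adjusted p = 0.119).

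GMP was also higher than MEP in 6 of 6 members (6.48% of all genes called higher). Elane differed by 6.95 and Ms4a3 by 6.56 on the log2 scale, whereas Mpo, Prss57, Ctsg and Prtn3 differed by 5.02 to 5.33. All edgeR adjusted p-values lay between 3.06e-11 and 3.41e-07. CLP was higher than HSC in 6 of 6 members (5.7% of all genes called higher), by 2.97 for Prtn3 to 5.95 for Ctsg. CLP was higher than MEP in 6 of 6 members (8.56% of all genes called higher), by 2.65 for Mpo to 4.58 for Elane.

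HSC was lower than MEP in 2 of 6 members, Mpo and Ctsg, where 5.4% of all genes were called lower. The log2 difference was -3.18 for Mpo (SE 0.563, edgeR adjusted p = 0.000185) and -2.99 for Ctsg (SE 0.628, edgeR adjusted p = 0.00137). Prss57, Elane and Ms4a3 had log2 differences of -1.16, -0.75 and -0.33 with intervals of -2.05 to -0.27, -1.87 to 0.37 and -1.43 to 0.77. Prtn3 had 0.03 (interval -0.70 to 0.76). With the mouse pool as a block, Prss57 was called as well (log2 -1.18, edgeR adjusted p = 0.049), and without pool 5 the call on Ctsg was lost (log2 -2.54, adjusted p = 0.0516).

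**Figure D2:**
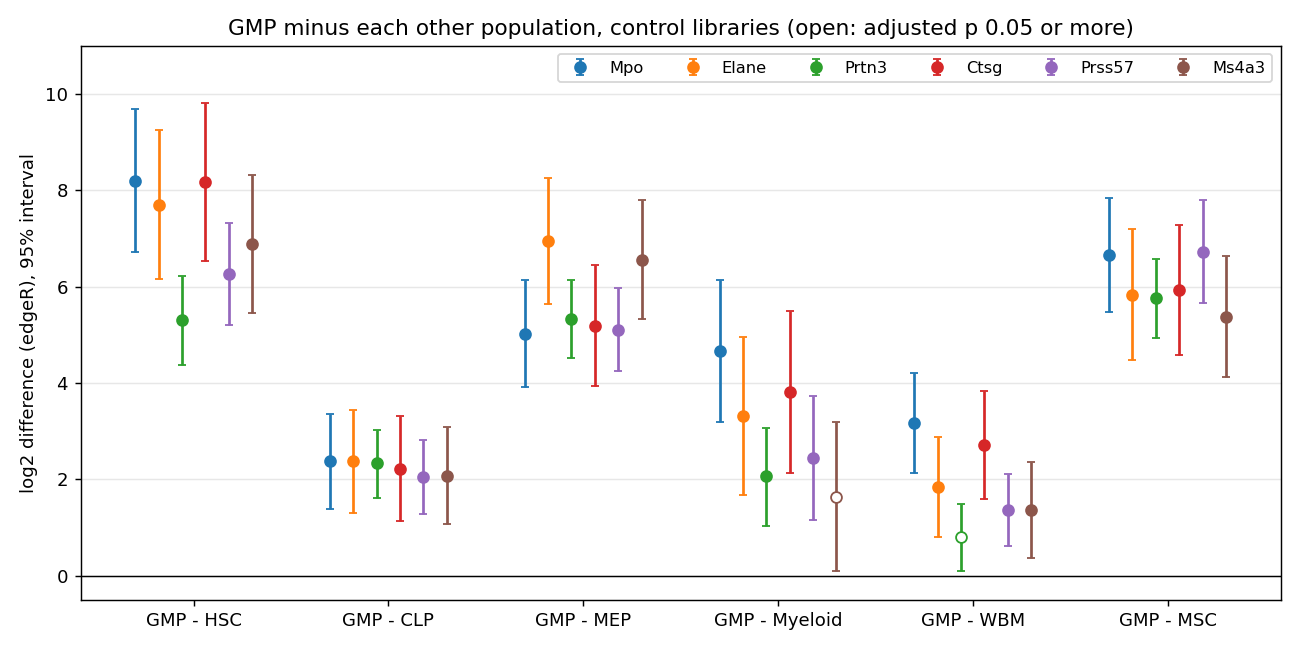
Log2 difference of GMP minus each other population in control libraries, with 95% intervals from edgeR, for the 6 genes in colour. Filled points passed the adjusted threshold; the differences from CLP lie between 2.05 and 2.37, whereas those from HSC, Myeloid and WBM spread widely, with Prtn3 the lowest against HSC and WBM.

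Against the stromal sort, GMP was higher in 6 of 6 members (19.7% of all genes called higher), by 5.38 for Ms4a3 to 6.72 for Prss57. MSC libraries were not free of the members: Mpo ranged from 115.5 to 269.8 CPM in 4 treated MSC libraries and from 61.43 to 311.2 CPM in 6 control ones. Mature neutrophil markers summed to 1526 to 13910 CPM in the treated and 949.7 to 4319 CPM in the control MSC libraries, and their part in the members' level was not tested. Prss57 had 0 counts in control MSC pool 3, where 3 counts would be 0.7994 CPM.

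Myeloid levels differed between batches. In batch B, Mpo was at 1927, 5844 and 2095 CPM in treated and at 3093, 3239 and 1596 CPM in control Myeloid libraries. In batch C it was at 344.4, 518.4 and 588.8 CPM in treated and at 697.8, 561.6 and 750.4 CPM in control ones. Every batch B library exceeded every batch C library for Mpo, and the same held for Elane, at 826.2 to 3777 CPM in batch B and 124.8 to 544.4 CPM in batch C. The share of all genes that separated the batches in this way was not computed. Prtn3 (565.8 to 2078 CPM in batch B and 362.4 to 796.6 CPM in batch C), Ctsg, Prss57 and Ms4a3 overlapped between batches. Mature neutrophil markers summed to 77860 to 156000 CPM in batch B and 123300 to 180100 CPM in batch C, which overlap. Monocyte and dendritic markers (340.9 to 919 CPM in batch B and 1125 to 1523 CPM in batch C), lymphoid markers (9.289 to 26.14 CPM and 44.91 to 253.2 CPM) and stromal markers (6.24 to 18.7 CPM and 19.49 to 172.3 CPM) were lower in every batch B than in every batch C library. Erythroid markers overlapped, at 11.97 to 220.4 CPM in batch B and 69.53 to 792.9 CPM in batch C. The part of these cells in the result was not tested. The batch B counts were also mostly even numbers, with 17.0% to 18.3% of the nonzero counts odd against 51.1% to 56.7% in batches A and C.

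GMP was higher than Myeloid in 5 of 6 members (16.3% of all genes called higher), with the largest log2 difference for Mpo, 4.66 (SE 0.721 and edgeR adjusted p = 1.48e-05). Ctsg differed by 3.81, Elane by 3.31, Prss57 by 2.44 and Prtn3 by 2.06, with edgeR adjusted p-values between 0.00088 and 0.00402. Ms4a3 had 1.64 (interval 0.09 to 3.19, adjusted p = 0.108), and was called with the mouse pool as a block (log2 1.83, edgeR adjusted p = 0.0329) and without pool 15 (2.80, adjusted p = 0.00957). In this fit the Myeloid level rests on the 3 control libraries of batch C, which only MSC and WBM tie to batch A. The treated libraries, tied only by MSC, gave 4 of 6 members, without Prss57 (log2 0.85, edgeR adjusted p = 0.876). Of all genes, 3261 of 18316 were called higher in that fit.

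Unsorted marrow came closer to GMP for Prtn3 than for Mpo. GMP was higher than WBM in 5 of 6 members (12.1% of all genes called higher), by 3.17 for Mpo, 2.71 for Ctsg, 1.84 for Elane, 1.37 for Ms4a3 and 1.36 for Prss57. Prtn3 was at 2722 to 4671 CPM in GMP and at 1618, 2347, 1824 and 1381 CPM in WBM, with a log2 difference of 0.80 (interval 0.10 to 1.49, edgeR adjusted p = 0.0794). It was called with the mouse pool as a block (log2 0.79, adjusted p = 0.0446). WBM pool 15, the only WBM library of batch C, held 327.7 CPM of Elane against 1365 to 2023 CPM in the other 3. Its erythroid markers summed to 90390 CPM against 11490 to 14290 CPM. The part of erythroid cells in its Elane level was not tested. Without pool 5, GMP was called above WBM only for Mpo and Ctsg. The call on Ms4a3 was also lost without pool 1, 7 or 15, with edgeR adjusted p-values of 0.0683, 0.0845 and 0.0522.

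Myeloid was called lower than WBM in 0 of 6 members by edgeR and 0 by DESeq2, where 10.3% of all genes were called lower. In edgeR, Mpo (log2 -1.50, adjusted p = 0.12) and Prtn3 (log2 -1.26, adjusted p = 0.0589) had an unadjusted p under 0.05. Without pool 15, which removes the only WBM library of batch C, 5 of 6 members were called lower. The log2 differences ran from 2.03 lower for Prtn3 to 3.18 lower for Prss57. In that fit Myeloid and WBM share no batch and are tied only through MSC. The share of all genes called lower in it is not given here.

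The balance between the members changed from population to population. Mpo made up 61.5% to 69.2% of the 6-gene sum in treated GMP and 53.3% to 67.6% in control GMP, and 49.4% to 77.2% in treated MEP and 66.3% to 79.0% in control MEP. In HSC it made up 25.0% to 32.0% in treated and 26.6% to 41.6% in control libraries. Prtn3 made up 40.1% to 61.3% in treated HSC and 36.2% to 58.6% in control HSC, against 8.93% to 10.7% in treated GMP and 8.4% to 12.8% in control GMP. The Prtn3 share did not overlap between HSC and GMP, and the difference of shares itself was not tested.

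Batch C Myeloid libraries were Prtn3-rich as well. In control WBM, Prtn3 made up 21.4% to 42.6% of the sum, a range that overlapped those of HSC and batch C Myeloid. Prtn3 made up 38.5% to 40.5% of the sum in treated and 28.6% to 39.7% in control Myeloid libraries of batch C, and 14.3% to 16.6% in treated and 16.2% to 19.9% in control ones of batch B. Ctsg was likewise a larger share in batch C, with 3.85% to 5.72% in treated and 4.26% to 6.01% in control batch C libraries and 2.09% to 2.42% in treated and 2.01% to 2.84% in control batch B libraries. In GMP, Ctsg took 5.9% to 8.37% in treated and 6.67% to 9.45% in control libraries. Those ranges lay above the batch C Myeloid ones of the same treatment.

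**Figure D3:**
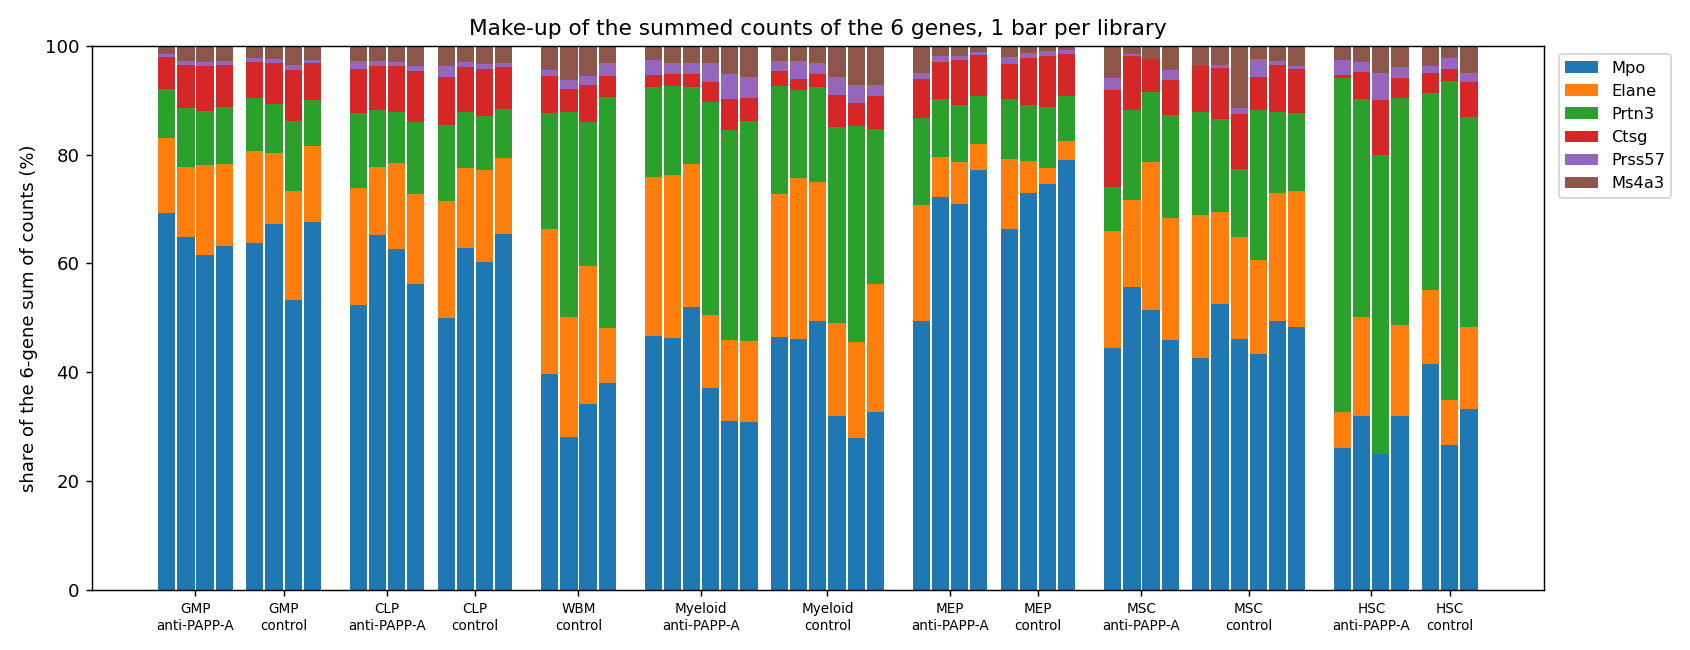
Share of each gene in the summed counts of the 6 genes, in percent, with 1 stacked bar per library, antibody-treated left of control in each population, and batch A, B and C in that order within a group. Mpo (blue) fills 49.4% to 79.0% of each GMP, CLP and MEP bar. Prtn3 (green) takes 36.2% to 61.3% of the HSC bars, 28.6% to 40.5% of the batch C Myeloid bars and 21.4% to 42.6% of the WBM bars.

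Per kilobase, the order of the members also changed. Elane exceeded Mpo in 0 of 4 treated and 1 of 4 control GMP libraries, but in 6 of 6 treated and 6 of 6 control Myeloid libraries. It did so in 4 of 4 treated and 6 of 6 control MSC libraries and in 3 of 4 WBM libraries. In HSC it did so in 2 of 4 treated and 3 of 3 control libraries. In CLP the counts were 2 of 4 and 1 of 4, and in MEP 1 of 4 and 0 of 4. Prtn3 exceeded Mpo in 4 of 4 treated and 3 of 3 control HSC libraries and in no GMP, CLP or MEP library. In Myeloid libraries Prtn3 exceeded Mpo in 3 of 6 treated and 3 of 6 control ones. It also did so in 4 of 4 control WBM libraries, and in 0 of 4 treated and 1 of 6 control MSC libraries. Ctsg exceeded Prtn3 in no HSC, Myeloid or WBM library.

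Across the 31 control libraries, the members' levels were correlated, with Pearson's r of log2(CPM + 1) between 0.853 (Prss57 and Ctsg) and 0.975 (Ms4a3 and Elane) over the 15 pairs. Mpo and Ctsg (0.974) and Prss57 and Prtn3 (0.965) were the next closest pairs. These are descriptions: the libraries fall into populations, share pools and batches, and most of the spread lies between populations. Ranked by r with the mean of the 6 genes, the nearest of 12091 genes were Gfi1 (0.947), a transcriptional repressor of granulocyte development, Alas1 (0.933), the enzyme that starts haem synthesis, Tifab (0.929), Dmkn (0.927) and Mgl2 (0.922). Within the 21 control libraries of batch A the values were 0.964, 0.941, 0.936, 0.938 and 0.94. Gfi1 was at 164.7 ± 27.24 CPM in GMP and 48.72 ± 29.24 CPM in CLP (SD, n = 4 each), and at 6.215 ± 1.484 CPM in HSC (n = 3). Alas1 was at 665.8 ± 81.97 CPM in GMP, 170.7 ± 94.39 CPM in CLP and 34.37 ± 3.322 CPM in HSC.

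**Figure D4:**
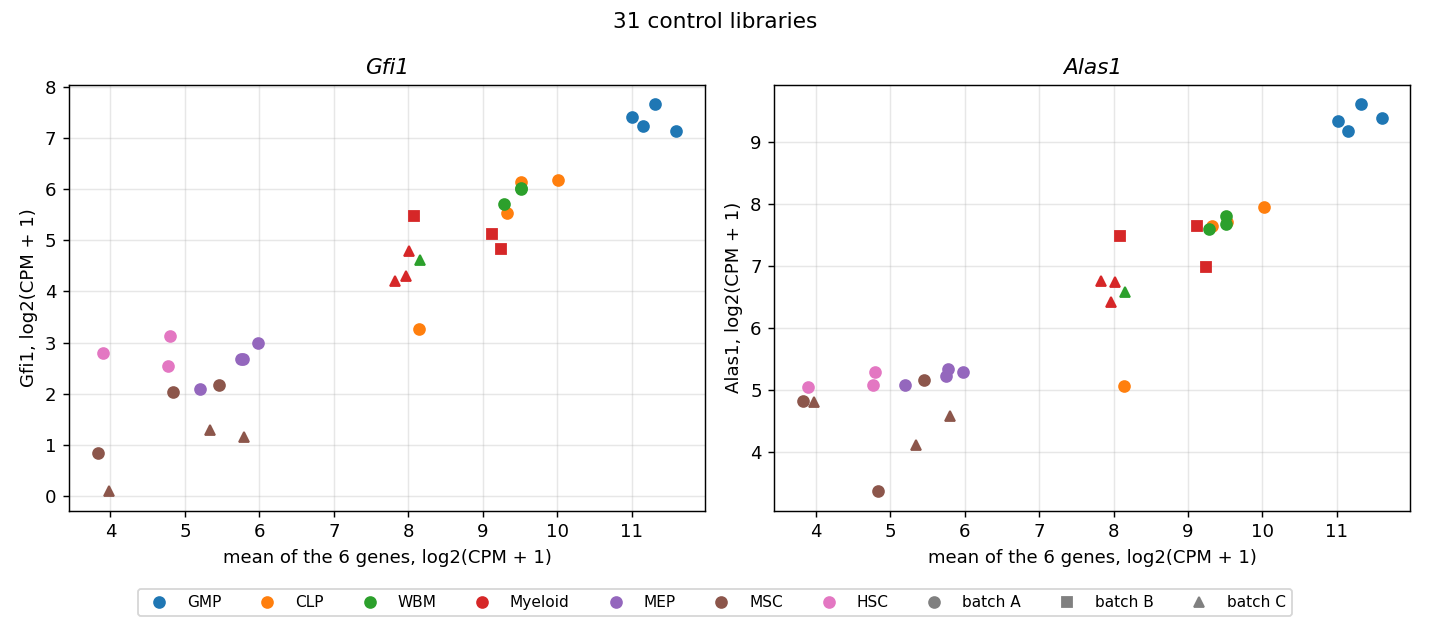
Gfi1 (left) and Alas1 (right) against the mean of the 6 primary granule genes, both as log2(CPM + 1), in 31 control libraries coloured by population with the batch as marker shape. GMP libraries lie at the top right and MSC and HSC libraries at the lower left, and r was 0.947 for Gfi1 and 0.933 for Alas1.

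Genes that serve the same granules had smaller median differences than the members. Between GMP and HSC, 6.77% of all genes were called higher and 10.1% lower. Of other azurophil and lysosomal cargo, 9 of 17 tested genes were higher and 0 lower. Their median log2 difference was 0.95, against 7.29 for the members and 0.01 for all genes. Ctsz, a lysosomal cysteine protease, differed by 2.16, Igsf6, an immunoglobulin superfamily membrane protein, by 5.60 and the glucuronidase Gusb by 1.11. Genes of protease activation, storage, folding and inhibition were higher in 11 of 19 and lower in 1 (median 0.97), led by the protease inhibitor Cst7 (log2 6.71), Alas1 (4.53) and the chaperone Calr (2.31). Of 13 transcription factor and receptor genes tied to granule genes, 8 were higher and 1 lower (median 1.70), led by the granulocytic factors Cebpa (6.34) and Cebpe (5.47) and the monocytic and dendritic factor Irf8 (5.85). Each of these 9 genes had an edgeR adjusted p between 4.59e-11 and 0.00116.

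Among called late granule genes, most were lower in GMP than in HSC, CLP and Myeloid. Mature neutrophil markers summed to 305.4 to 626.9 CPM in control GMP. The sums were 560.1 to 2269 CPM in control HSC and 572.1 to 9115 CPM in control CLP. Control MEP, at 299.4 to 1009 CPM, overlapped control GMP. The part of mature cells in these differences was not tested. Of 18 secondary granule and mature neutrophil genes, 1 was higher and 6 were lower in GMP than in HSC (median -1.74), where 10.1% of all genes were called lower. In GMP against CLP, 0 were higher and 11 lower (median -2.36), where 6.02% of all genes were called lower. Against Myeloid, 0 were higher and 18 lower (median -10.09, against 0.21 for all genes), where 11.0% of all genes were called lower. Among the 18 were Ngp (-10.23), Chil3 (-10.18) and Ltf (-11.12), the gene of lactoferrin, with edgeR adjusted p-values from 3.73e-10 to 1.89e-09. Of the members, 5 of 6 were called higher in GMP in that same contrast. The lysozyme genes Lyz2 (-8.37) and Lyz1 (-9.81), listed as azurophil cargo, were lower in GMP as well, though their near-identical sequences make the split between them uncertain. The other azurophil cargo counted 2 of 17 higher and 5 lower, lysozymes included, where 16.3% of all genes were called higher and 11.0% lower.

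Neighbouring genes at the member loci were tested in 14 of 18 cases. Between GMP and HSC, 7 were higher and 0 lower (median 3.09), where 6.77% of all genes were called higher. Examples were Ms4a2 (log2 6.82), the mast cell and basophil IgE receptor chain, Ms4a6c (3.43) and Plppr3 (2.06), which overlaps Prtn3 on the opposite strand, with edgeR adjusted p-values from 2e-06 to 9.74e-05. Between GMP and CLP, 1 of the 14 was higher, Plppr3 (log2 1.79, edgeR adjusted p = 0.000502), and 0 were lower. Of all genes, 5.15% were called higher and 6.02% lower there, and the members were higher in 6 of 6.

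Treatment was tested within each population, as treated minus control. In each of the 6 populations 0 of 6 members were called, by edgeR and by DESeq2, and in none of the 36 tests was the unadjusted edgeR p under 0.05. Over all genes, edgeR called 0.0069% in HSC, 0.0313% in MSC and 0.0% in GMP, CLP, MEP and Myeloid, and the unadjusted p was under 0.05 for 1156, 676, 195, 29, 444 and 437 genes in that order. DESeq2 called 5, 64, 0, 0, 13 and 11 genes. The estimates were negative in 27 of 36 tests. The members were correlated and measured in the same libraries, so these signs were not independent. The median log2 difference of all genes lay between -0.03 and 0.02 in the 6 populations. The share of all genes with a negative estimate was not computed.

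GMP gave the tightest bounds on the members. Mpo averaged 21530 ± 2806 CPM in treated and 21570 ± 2637 CPM in control GMP (SD, n = 4 each), a log2 difference of -0.05 with a 95% interval of -0.45 to 0.36 (edgeR adjusted p = 1.0). The other 5 members had log2 differences of -0.24 to -0.12 in GMP, and no interval reached beyond -0.82 or 0.37. In CLP the differences were -0.23 to 0.03, with intervals reaching -1.24 and 0.92. In HSC, where counts were low, they were -0.06 to 0.74, with the lowest bound at -1.92 (Ctsg) and the highest at 2.5 (Elane). Only for Prtn3 did the interval stay within 1 log2 unit on both sides.

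Prss57 in HSC was the single case of 36 in which treated and control libraries did not overlap. It was at 4.97, 9.87, 9.31 and 4.219 CPM in treated HSC and at 3.961, 3.768 and 4.113 CPM in control HSC. Of all genes with a mean of at least 1 CPM, 2.39% had every treated HSC library above every control one. The log2 difference was 0.74 (interval -0.39 to 1.86, edgeR adjusted p = 0.718), and the 9.31 CPM of pool 6 was a single count of 107412.

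In MEP the estimates were above 0 for Elane and Ms4a3 and below 0 for the other members, and none was called. Elane was at 143.8, 58.22, 28.55 and 40.01 CPM in treated MEP and at 61.2, 51.51, 29.19 and 47.61 CPM in control MEP (log2 0.51, edgeR adjusted p = 0.999). Ms4a3 was at 33.73, 14.61, 7.386 and 10.44 CPM in treated MEP and at 9.902, 11.2, 9.874 and 10.69 CPM in control MEP (log2 0.68, edgeR adjusted p = 0.999). Treated pool 2 was the highest for both, and its mature neutrophil markers summed to 7662 CPM against 299.4 to 1009 CPM in the other MEP libraries. Without pool 2 the log2 differences were -0.18 for Elane and 0.05 for Ms4a3. The part of the mature neutrophil markers in these estimates was not tested.

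Myeloid estimates for treatment were below 0 over both batches and lower in batch C than in batch B. Over both batches the log2 differences ran from -0.36 for Elane to -0.08 for Prss57. In batch C alone they were -0.99 for Elane, -0.98 for Ms4a3, -0.78 for Ctsg, -0.52 for Mpo, -0.38 for Prtn3 and -0.10 for Prss57. The unadjusted edgeR p was under 0.05 for 4 of 6 members there, where 8.82% of all genes reached it, and the adjusted p-values lay between 0.442 and 0.981. In batch B alone the differences ran from -0.05 to 0.34, with edgeR adjusted p = 1.0 for each.

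In batch C, treated Myeloid libraries had lower Elane and Ms4a3 values than control ones, without a call after adjustment. Elane was at 124.8, 247.9 and 285.9 CPM in treated and at 369.8, 352.1 and 544.4 CPM in control Myeloid libraries of batch C. Ms4a3 was at 29.36, 87.33 and 108.6 CPM in treated and at 122.5, 142.7 and 164.4 CPM in control ones. For these 2 of 6 members every treated library lay below every control library, which 7.51% of all genes with a mean of at least 1 CPM did. Mature neutrophil markers summed to 123300 to 150000 CPM in these treated and 152400 to 180100 CPM in these control libraries, and monocyte and dendritic markers to 1428 to 1523 CPM in the treated and 1125 to 1199 CPM in the control ones. Lymphoid markers summed to 170.2 to 253.2 CPM in the treated and 44.91 to 132.6 CPM in the control libraries, and stromal markers to 115.9 to 172.3 CPM in the treated and 19.49 to 95.01 CPM in the control ones. None of these 4 marker sums overlapped between the groups, but lists were named here because they moved with the result. Erythroid marker sums did overlap, at 84.82 to 792.9 CPM in the treated and 69.53 to 126 CPM in the control libraries. The part of the marker genes in the result was not tested. The difference between the batches in the treatment effect was itself tested, and was called for 0 of 6 members by edgeR and by DESeq2 (edgeR 0.00511% of all genes, with 1220 genes at an unadjusted p under 0.05, and 246 genes by DESeq2). The edgeR adjusted p was 0.829 for Ms4a3 and 0.831 for Elane.

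**Figure D5:**
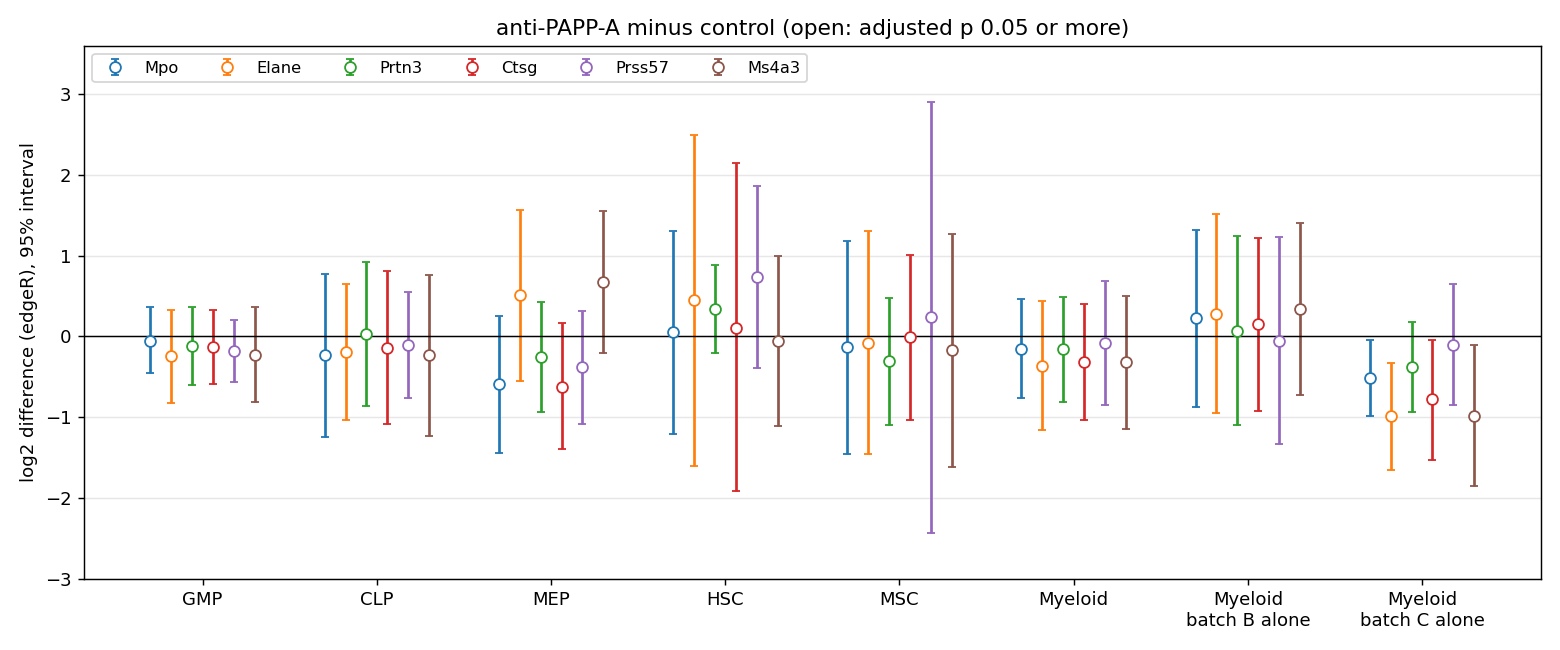
Log2 difference of anti-PAPP-A minus control for each gene by population, with 95% intervals from edgeR, and for Myeloid also in batch B alone and batch C alone. All points are open because none passed the adjusted threshold; GMP intervals stay between -0.82 and 0.37, and in Myeloid batch C the estimates run from -0.99 to -0.10.

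The treatment effect in GMP was set against the mean effect in HSC, CLP and MEP in a joint edgeR fit over 18141 genes. No member was called by edgeR or DESeq2 (0.0% of all genes by edgeR, with 139 genes at an unadjusted p under 0.05, and 4 genes by DESeq2). The differences of effects ran from -0.55 for Elane (interval -1.76 to 0.66) to 0.17 for Mpo (interval -0.86 to 1.19). None of the 145 listed genes of granule biology, lineage markers and neighbours was called in any treatment comparison, with 115 to 131 of them tested per population and edgeR adjusted p-values of at least 0.516.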

How the data were processed

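RNA from unsorted marrow or sorted cells was extracted with RNeasy and digested by DNase I, and NEBNext Ultra II libraries that keep strand were sequenced, per the labels' protocols. The authors deposited estimated counts per gene, already whole numbers. Per the submitters' processing notes, the tools were Salmon and FastQC 0.11.5 and the build mm10. Which annotation and which Salmon version were used is not given in the sources used here. Repeated lines of a gene were identical and were kept once. CPM are counts per 1000000 counts of a library, which ranged from 107412 to 125537299. The members and lists were chosen with earlier results of these data known. Within each list, up to 3 called genes with the smallest p were named.

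Tests were edgeR 4.0.16 quasi-likelihood fits in R 4.3.3 (TMM, low-count filter, batch as a term where a fit held several). Benjamini-Hochberg adjustment ran over all genes, with a threshold of 0.05. The fits were also run on simulated counts with known changes. Those counts held no batch effects, no shared pools and no other population differences, so these parts of the fits were not checked. Treatment was fitted within each population, and populations in all 31 control libraries. Alternatives were DESeq2 1.42.0, no filter, other batch terms or libraries, and each pool left out. Libraries with 1 pool number come from the same mice, per the labels, so pools were also fitted as a replicate block between populations. Control and treated pools were different mice. Whether replicate pools were separate cages or litters is not stated. Within a population, treatment p-values measure the spread between these pools. Fits over several populations use a spread per gene shared by all their libraries. In these main fits, libraries of the same pool are not paired.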

Additional observations from a re-analysis of the deposited data

Results flagged for a closer look

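In each group of 4 to 10 libraries, the highest and lowest library of each member were compared with the rest by the gap to the nearest value over the whole range. Batches were pooled within a group, so that Myeloid groups mixed batches B and C, and MSC groups mixed A and C. Of 72 groups checked, 6 had a library past the 95% limit, where independent checks would give about 3.6 (about 1 in 20). The members are correlated and share libraries, so the checks were not independent and 3.6 is not a firm baseline.

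Treated Myeloid pool 12 (batch B) stood above the other 5 treated Myeloid libraries for 5 members: Mpo at 5844 CPM, Elane at 3777 CPM, Prtn3 at 2078 CPM, Ctsg at 290.4 CPM and Ms4a3 at 403.7 CPM. The gap was 0.682 of the range for Mpo, 0.703 for Elane, 0.759 for Prtn3, 0.757 for Ctsg and 0.715 for Ms4a3. These 5 results share 1 library. Without pool 12 the treatment log2 differences in Myeloid were -0.41 for Mpo, -0.68 for Elane, -0.43 for Prtn3, -0.61 for Ctsg and -0.66 for Ms4a3, none of them called by edgeR.

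Control MEP pool 1 was low for Prss57, at 5.925 CPM against 8.2 to 8.567 CPM in the other 3 control MEP libraries, with a gap of 0.861 of the range.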

How the results depend on the processing

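No member was called in any of 80 alternative fits of the treatment comparisons, and no called difference reversed. Of the members' estimates in these fits, 68 changed sign, none of them called, and 412 did not. In the alternatives of the 2 comparisons of treatment effects, 16 changed sign and 134 did not. In CLP, leaving out the library under 1000000 counts turned Mpo to 0.04, Elane to 0.14, Ctsg to 0.19, Prss57 to 0.04 and Ms4a3 to 0.08 on the log2 scale. No paired analysis of treatment was possible because treated and control pools were different mice.

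Leaving out each pool in turn, members called ranged from 3 to 6 for GMP against CLP, 5 to 6 for GMP against Myeloid, 2 to 5 for GMP against WBM, 1 to 3 for HSC against MEP and 0 to 5 for Myeloid against WBM. With the mouse pool as a replicate block, 1 member was called between Myeloid and WBM (Prtn3, log2 -1.47, edgeR adjusted p = 0.0105), and without a low-count filter also 1 (-1.35, adjusted p = 0.0367). Without the filter Ms4a3 was lost in GMP against WBM (1.46, edgeR adjusted p = 0.0568). The cause was not tested.

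Counts over all genes moved more. DESeq2 called 735 genes higher and 2498 lower in GMP than in CLP, against 1101 and 1287 by edgeR. In batch A alone 2572 genes were higher in GMP than in HSC, against 1448. DESeq2 called 2587 higher and 1599 lower in CLP than in HSC (edgeR 1219 and 1632). Without a filter, 181 genes were called for treatment in HSC and 112 in Myeloid, against 1 and 0. A joint fit of all populations called 649 genes for treatment in MSC, 166 higher and 483 lower, against 5 in the main fit. Halving the mostly even batch B counts, chosen after seeing the data, changed no member's call. Libraries under 1000000 counts occur in HSC, CLP and MSC.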
